A study of Mus musculus with 10 samples.

Results

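The interleukin 4 receptor and its relatives were followed in microglia, the resident macrophages of the brain, from mice given lipopolysaccharide (LPS) and mice given saline. The genes were the rows of the count table whose gene name was Il4ra, Il13ra1, Il2rg, Il7r, Il21r, Il15ra, Il15 or Il2rb, which are 8 of the 40789 genes listed. LPS, a component of bacterial outer membranes, is sensed by Toll-like receptor 4. Each of 5 LPS mice received 4 mg/kg into the peritoneum, and each of 5 control mice received an injection of saline (their library titles read PBS). All mice were females of 2 to 3 months on the C57BL6/J background with the genotype CX3CR1+/egfp, in which a green fluorescent reporter replaces 1 copy of the fractalkine receptor gene Cx3cr1. The cortex of perfused mice was taken 24 h after the injection, brightly green cells were sorted from it, and each library came from 1 mouse. The reporter was the only stated gate, so other cells with an active Cx3cr1 locus could enter the sort, and p-values measure the spread between mice.

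Type I interleukin receptors are built from shared chains. The IL-4 receptor alpha chain pairs with the common gamma chain to bind IL-4, or with the IL-13 receptor alpha 1 chain to bind IL-4 or IL-13, and both pairs signal mainly through STAT6. The common gamma chain also joins the IL-7, IL-21, IL-15 and IL-2 receptors, where it carries the kinase JAK3. IL-15 is unusual in that its own alpha chain presents it on the cell surface to neighbouring cells that carry the IL-2 receptor beta chain and the common gamma chain. In macrophages, IL-4 and IL-13 are known for inducing a repair-associated gene program.

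The sorted cells carried microglial RNA in both groups, at a lower summed level in LPS. The 10 microglia markers summed to 16900 to 30690 CPM in LPS libraries and 59510 to 68950 CPM in saline libraries, where CPM is the count scaled to a common library size with TMM factors. Of these 10 markers, 8 fell and 2 were not called. Cx3cr1, whose locus drives the reporter, averaged 1476 CPM in LPS and 4134 CPM in saline. Total counts were 12928007 to 15332121 per LPS library and 11577295 to 15274421 per saline library. Of 13793 genes tested with edgeR, 45.0% were called at an adjusted p below 0.05, 22.4% higher and 22.5% lower in LPS. The value ranges of the 2 groups did not overlap for 29.8% of tested genes.

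Of the 8 genes, Il4ra, Il2rg and Il15ra rose in LPS, Il7r and Il13ra1 fell, Il21r and Il15 were not called, and Il2rb was too low to test. The 7 that passed the filter on low counts were well above it in both groups, at group means of 12.3 CPM or more. The groups did not overlap for 4 of these 7 (Il4ra, Il2rg, Il15ra and Il7r). The median log2 fold change of the 7, LPS over saline, was 0.36, against 0.0014 over all tested genes. Libraries were made from all sorted cells of a mouse, so fewer cells of a type cannot be told apart from less RNA per cell. The plot of values by mouse shows the single measurements, and the plot of log2 fold changes orders the 7 genes.

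**Figure D1:**
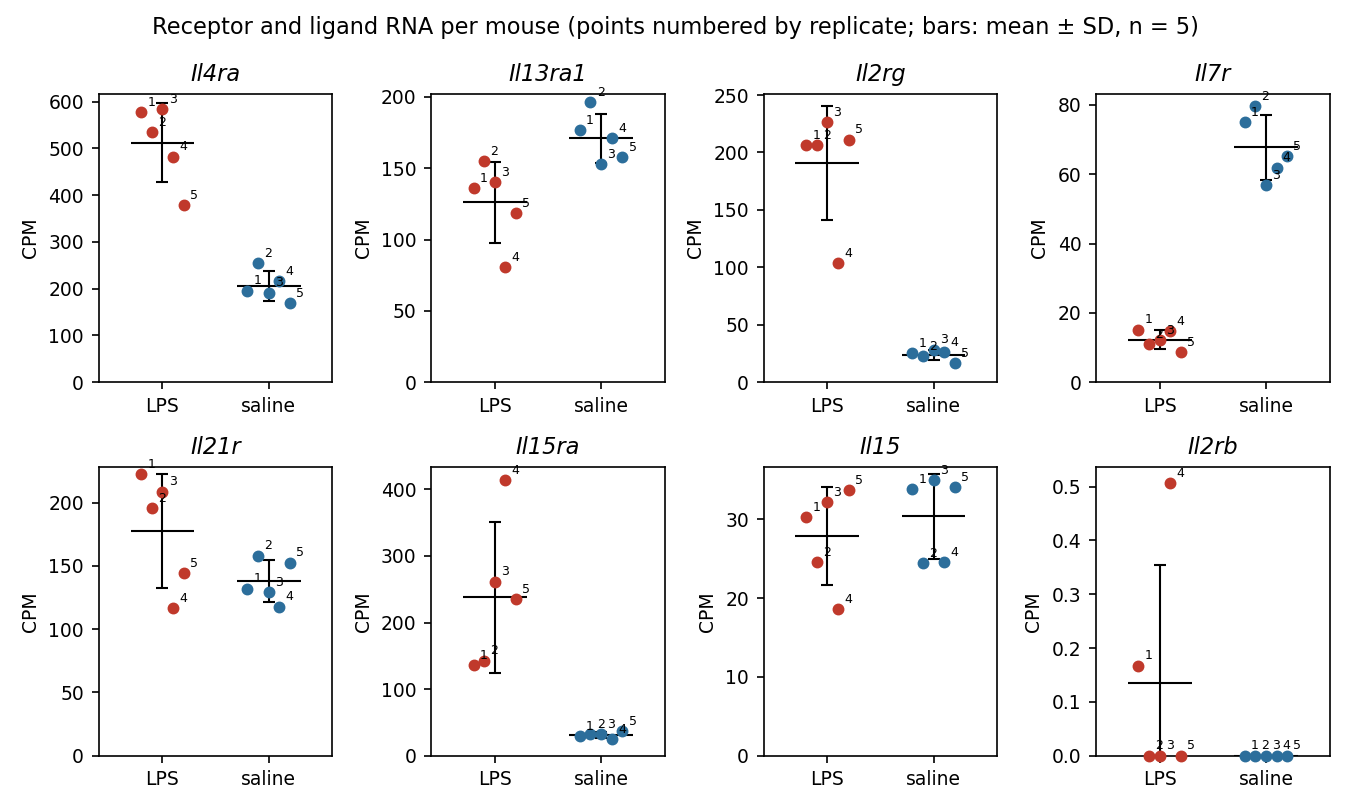
CPM of each gene in LPS mice (red, left) and saline mice (blue, right), 1 point per mouse numbered by replicate, with the mean and SD of 5 mice; each panel has its own axis from 0. Il4ra, Il2rg and Il15ra lie higher and Il7r lower in all 5 LPS mice than in any saline mouse.

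**Figure D2:**
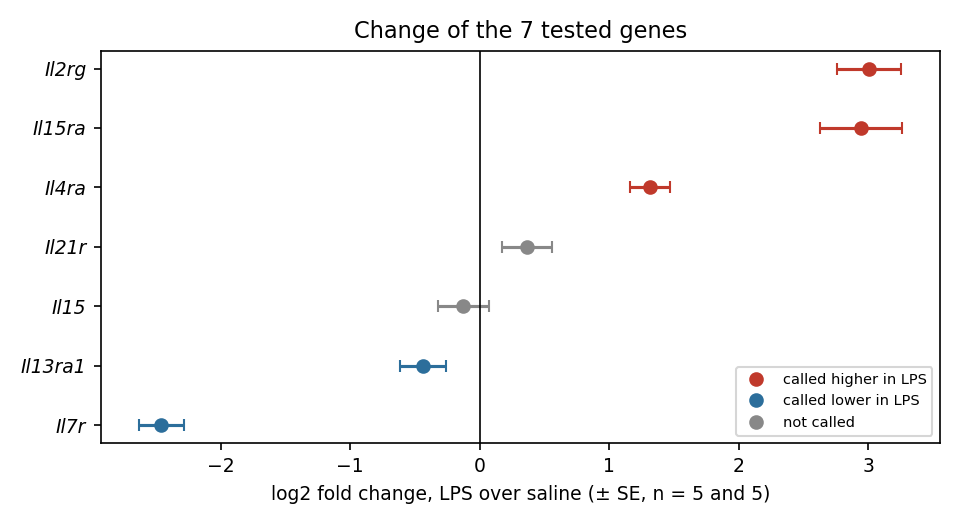
Log2 fold change, LPS over saline, of the 7 tested genes with its standard error (n = 5 and 5), coloured by the edgeR call. Il2rg at 3.01 and Il15ra at 2.95 lie at one end and Il7r at -2.46 at the other.

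The promoters of the 3 genes with the largest changes are shown with short motifs of factors that act downstream of interferons, cytokine receptors and Toll-like receptors. Each window of 300 bases holds the 250 bases before the transcript start and the first 50 bases of the transcript, from RefSeq (GRCm38.p6). It is written 5′ to 3′ on the strand of the gene, and capitals mark a motif match. Positions count from the first base of the transcript, with -1 the base before it. RefSeq windows were matched for 6 of the 8 genes (7 windows), all but Il15 and Il2rb. The Il15ra windows are chr2:11705043-11705342 and chr2:11705462-11705761 (plus strand), the Il7r window is chr15:9529827-9530126 (minus strand) and the Il2rg window is chrX:101268206-101268505 (minus strand).
Il15ra, first start: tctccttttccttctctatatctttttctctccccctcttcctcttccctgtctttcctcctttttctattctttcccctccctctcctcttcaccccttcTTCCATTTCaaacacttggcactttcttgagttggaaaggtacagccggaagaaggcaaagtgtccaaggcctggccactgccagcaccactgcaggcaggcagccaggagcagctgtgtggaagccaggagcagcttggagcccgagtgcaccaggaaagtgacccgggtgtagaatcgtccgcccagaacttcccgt
Il15ra, second start: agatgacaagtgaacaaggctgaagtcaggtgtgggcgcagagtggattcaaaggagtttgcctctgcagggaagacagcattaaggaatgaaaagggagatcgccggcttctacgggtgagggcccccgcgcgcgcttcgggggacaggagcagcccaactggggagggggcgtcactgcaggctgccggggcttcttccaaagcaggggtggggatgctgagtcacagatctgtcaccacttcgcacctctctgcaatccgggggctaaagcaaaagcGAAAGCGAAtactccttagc
Il7r: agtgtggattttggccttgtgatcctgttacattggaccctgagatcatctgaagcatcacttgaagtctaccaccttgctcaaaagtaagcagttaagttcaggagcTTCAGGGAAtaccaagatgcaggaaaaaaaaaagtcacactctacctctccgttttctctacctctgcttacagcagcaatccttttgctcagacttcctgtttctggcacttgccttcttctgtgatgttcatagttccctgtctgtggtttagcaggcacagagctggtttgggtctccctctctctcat
Il2rg: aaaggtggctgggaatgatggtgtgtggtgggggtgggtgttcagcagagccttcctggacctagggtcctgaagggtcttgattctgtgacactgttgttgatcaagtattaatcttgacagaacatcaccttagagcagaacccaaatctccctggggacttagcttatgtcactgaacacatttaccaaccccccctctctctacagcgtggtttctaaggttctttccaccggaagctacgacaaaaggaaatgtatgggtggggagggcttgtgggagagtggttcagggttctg

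Both strands were searched for 4 motifs. The interferon response core GAAANNGAA (reverse TTCNNTTTC) was found in both Il15ra windows, as TTCCATTTC from position -149 in the first and as GAAAGCGAA from position 31 in the second. It was found in 8.56% of all 32851 promoter windows of the RefSeq table. The STAT spacing TTCNNNGAA, which reads the same on both strands, was found once, in Il7r, as TTCAGGGAA from position -142, and occurred in 8.3% of all windows. The STAT6 spacing TTCNNNNGAA (6.95% of all windows) and the NF-kB core GGANNTTCC (reverse GGAANNTCC, 4.26%) had no match in the 7 windows. These matches are descriptions of letters and not of bound sites. The windows of Il4ra, Il13ra1, Il21r and Il2rg held none of the 4 motifs.

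Il4ra encodes the alpha chain that every IL-4 receptor contains (Entrez gene 16190, GRCm38 chr7:125552271-125579474). In LPS mice it measured 577, 534.5, 584.3, 482.4 and 379.1 CPM, against 195.6, 255.0, 191.6, 215.9 and 169.7 CPM in saline mice. The lowest LPS mouse, replicate 5, stood above the highest saline mouse, replicate 2. Il4ra averaged 511 ± 84.4 CPM in LPS and 205.5 ± 32.1 CPM in saline (SD, n = 5 each). That is a 2.49-fold rise (log2 1.32 ± 0.15 SE; edgeR adjusted p = 1.87e-05), and 8.1% of tested genes rose as far or further. Its exons share bases with those of an antisense gene, Gm44876, in the GENCODE M21 annotation, and no source used here says whether counting used strand.

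Il2rg, whose promoter window above held none of the motifs, encodes the common gamma chain (Entrez gene 16186, chrX:101264385-101268255). In LPS mice it measured 206.2, 206.5, 226.4, 103.8 and 211.3 CPM, against 25.2, 22.4, 28.3, 26.4 and 16.4 CPM in saline mice. LPS replicate 4 was well below the other LPS mice, yet still stood far above every saline mouse. The means were 191 ± 49.3 CPM in LPS and 23.7 ± 4.64 CPM in saline (SD, n = 5 each). The rise was 8.04-fold (log2 3.01 ± 0.25 SE; edgeR adjusted p = 2.55e-07), and 1.23% of tested genes rose as far or further. On the same strand, exons of the coding gene Gm20489 share bases with it, so reads of the 2 genes may not be separable.

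Il13ra1 encodes the chain that replaces common gamma in the receptor shared by IL-4 and IL-13 (Entrez gene 16164, chrX:36112108-36171262). It measured 136.0, 155.0, 140.3, 80.9 and 118.4 CPM in LPS mice, against 176.8, 196.6, 152.9, 171.1 and 157.8 CPM in saline mice. The groups overlapped, since LPS replicate 2 lay above saline replicate 3, and LPS replicate 4 was the lowest of all. Il13ra1 averaged 126 ± 28.4 CPM in LPS and 171 ± 17.3 CPM in saline (SD, n = 5 each), a 1.36-fold fall (log2 -0.44 ± 0.18 SE; edgeR adjusted p = 0.0415). The call was close to the threshold: leaving out 1 mouse ended it for LPS replicates 1, 3, 4 and 5 and for saline replicates 1, 2, 3 and 4, with edgeR adjusted p of 0.0528 to 0.104. It was also lost with RLE scaling (edgeR adjusted p = 0.0586) and with each library's trend over gene length removed (log2 -0.26; edgeR adjusted p = 0.228).

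The order of the 2 chains that can pair with Il4ra differed between the groups. The ratio of Il13ra1 to Il2rg in RPKM (reads scaled to gene length and library size, the authors' values) was 0.288, 0.328, 0.271, 0.341 and 0.245 in LPS mice, against 3.07, 3.84, 2.37, 2.83 and 4.22 in saline mice. Every LPS mouse had less Il13ra1 than Il2rg per length, and every saline mouse had more. The log2 ratio of counts averaged -0.58 ± 0.20 in LPS and 2.87 ± 0.34 in saline (SD, n = 5 each), a difference of -3.45 (exact two-sided permutation p = 0.00794, adjusted p = 0.00992 over 5 ratios). With 5 against 5 mice, 0.00794 is the smallest p this test can give.

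Il4ra rose less than its common gamma partner Il2rg, and it rose relative to its other partner Il13ra1. Its RPKM ratio to Il2rg was 0.866, 0.801, 0.799, 1.44 and 0.555 in LPS mice, against 2.41, 3.52, 2.10, 2.53 and 3.21 in saline mice. The log2 ratio of counts of this pair averaged 1.46 ± 0.49 in LPS and 3.12 ± 0.31 in saline (SD), a difference of -1.67 (exact permutation p = 0.00794, adjusted p = 0.00992, n = 5 each). The RPKM ratio of Il4ra to Il13ra1 was 3.00, 2.44, 2.95, 4.22 and 2.27 in LPS mice, against 0.783, 0.918, 0.887, 0.893 and 0.761 in saline mice. Here the log2 ratio of counts averaged 2.04 ± 0.35 in LPS and 0.26 ± 0.12 in saline (SD, n = 5 each), a difference of 1.78 with the same exact p and adjusted p. Neither ratio overlapped between the groups, as the plot of ratios shows.

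**Figure D3:**
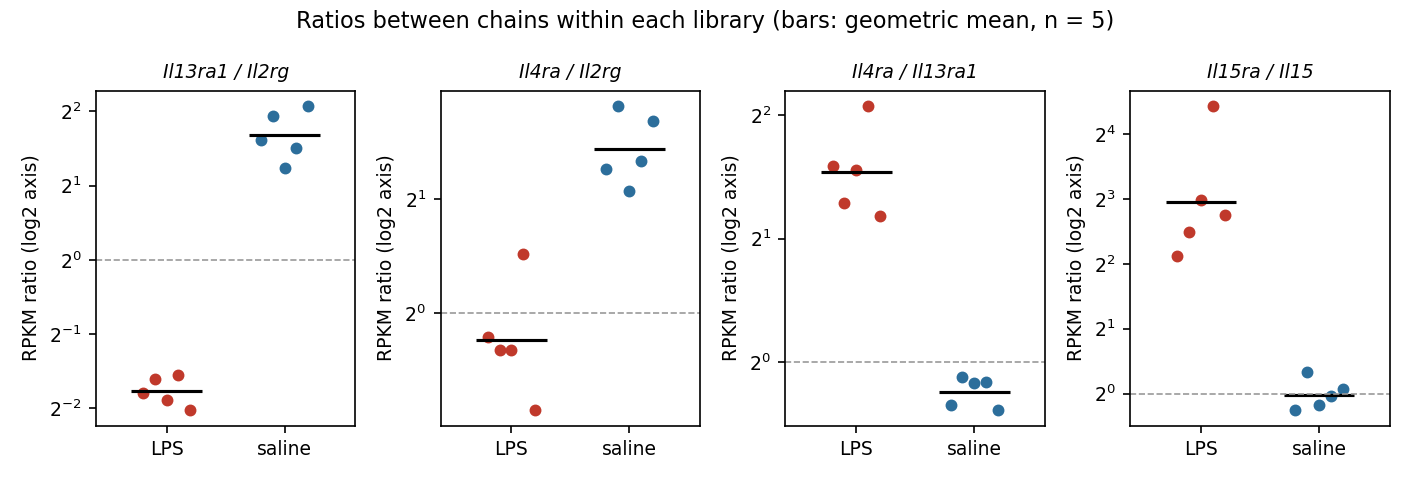
RPKM ratios between pairs of genes within each library on log2 axes, for LPS mice (red, left) and saline mice (blue, right); bars are geometric means of 5 mice and the dashed line marks equal levels. Il13ra1 over Il2rg lies below 1 in all LPS mice and above 1 in all saline mice, and Il15ra over Il15 is at least 4.34 in LPS mice and at most 1.26 in saline mice.

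Il7r encodes the alpha chain of the IL-7 receptor, which also joins the receptor for thymic stromal lymphopoietin, and its promoter window above held the STAT spacing (Entrez gene 16197, chr15:9506159-9529941). In LPS mice it measured 15.1, 10.9, 12.2, 14.7 and 8.61 CPM, against 75.1, 79.8, 57.0, 61.9 and 65.2 CPM in saline mice. The highest LPS mouse stayed well under the lowest saline mouse. Il7r averaged 12.3 ± 2.71 CPM in LPS and 67.8 ± 9.41 CPM in saline (SD, n = 5 each), a 5.50-fold fall (log2 -2.46 ± 0.17 SE; edgeR adjusted p = 1.98e-07). As far a fall or a further one was seen in 1.19% of tested genes.

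Il21r encodes the IL-21 receptor chain and lies beside Il4ra on chromosome 7 (Entrez gene 60504, chr7:125603252-125634397). In LPS mice it measured 222.8, 195.7, 208.8, 116.4 and 144.4 CPM, against 132.1, 158.1, 129.4, 117.9 and 152.6 CPM in saline mice. LPS replicates 1, 2 and 3 lay above every saline mouse, replicate 5 lay among them and replicate 4 just below. The means of 178 ± 45.3 CPM in LPS and 138 ± 16.8 CPM in saline (SD, n = 5 each) did not pass the test (log2 0.36 ± 0.19 SE; edgeR adjusted p = 0.105). Without LPS replicate 4 the difference was called (log2 0.48; edgeR adjusted p = 0.0168).

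Il15ra, with the interferon response core in both promoter windows printed above, encodes the high-affinity alpha chain that presents IL-15 (Entrez gene 16169, chr2:11705172-11733985). In LPS mice it measured 135.6, 142.8, 261.5, 414.1 and 235.2 CPM, against 29.2, 31.8, 31.8, 24.6 and 37.1 CPM in saline mice. All LPS mice stood above all saline mice, but they differed among themselves, with replicate 4 highest and replicates 1 and 2 lowest. Il15ra averaged 238 ± 113 CPM in LPS and 30.9 ± 4.56 CPM in saline (SD, n = 5 each), a 7.70-fold rise (log2 2.95 ± 0.31 SE; edgeR adjusted p = 2.12e-06). Only 1.27% of tested genes rose as far or further. Its coefficient of variation was 47.5% in LPS and 14.7% in saline, where the medians over tested genes were 26.1% in LPS and 20.1% in saline.

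Il15 encodes the cytokine itself (Entrez gene 16168, chr8:82331624-82403252). It measured 30.3, 24.6, 32.1, 18.6 and 33.7 CPM in LPS mice, against 33.9, 24.4, 35.0, 24.6 and 34.1 CPM in saline mice. The groups overlapped, with LPS replicate 4 the lowest of all. Il15 averaged 27.9 ± 6.24 CPM in LPS and 30.4 ± 5.39 CPM in saline (SD, n = 5 each), a difference that was not called (log2 -0.13 ± 0.20 SE; edgeR adjusted p = 0.593).

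Within libraries, the RNA of the receptor chain rose relative to that of its ligand. Il15ra over Il15 in RPKM was 4.34, 5.64, 7.89, 21.6 and 6.76 in LPS mice, against 0.836, 1.26, 0.883, 0.971 and 1.05 in saline mice. Saline mice had the 2 RNAs at nearly equal levels per length, and every LPS mouse had several times more of the receptor RNA. The log2 ratio of counts averaged 3.00 ± 0.89 in LPS and 0.030 ± 0.23 in saline (SD, n = 5 each), a difference of 2.97 (exact two-sided permutation p = 0.00794, adjusted p = 0.00992 over 5 ratios).

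Il2rb encodes the beta chain that IL-2 and IL-15 receptors share on responding lymphocytes (Entrez gene 16185, chr15:78479256-78511621). Its raw counts were 2, 0, 0, 8 and 0 in LPS mice and 0 in each of the 5 saline mice. Nearly all of its reads came from LPS replicate 4, and it did not pass the filter. Against a floor of 3 counts over the saline group, the 10 LPS counts stood 3.28-fold higher, but without replicate 4 the 2 counts left were under the floor of 3. That fold takes the LPS counts as exact. With no filter, edgeR did not call Il2rb (log2 4.02; adjusted p = 0.0535). A floor of 3 counts over a group equals 0.0438 CPM in LPS and 0.0445 CPM in saline and covers counting error only. Il2rb over Il2rg could not be read as a balance of chains, since the count added to each gene set its value.

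Levels of different genes can be compared per length, in the authors' RPKM. In LPS mice the order was Il2rg at 120.0 ± 31.6, Il4ra at 99.3 ± 16.5, Il15ra at 93.8 ± 43.3, Il21r at 48.8 ± 12.7, Il13ra1 at 34.6 ± 8.06, Il15 at 11.4 ± 2.61 and Il7r at 3.87 ± 0.835 RPKM (SD, n = 5). Each of the first 5 overlapped its neighbour in the range over mice, while Il13ra1, Il15 and Il7r were separated from each other. In saline mice the order was Il13ra1 at 45.9 ± 4.67, Il4ra at 39.1 ± 6.15, Il21r at 37.1 ± 4.99, Il7r at 20.9 ± 2.98, Il2rg at 14.6 ± 2.80, Il15 at 12.2 ± 2.25 RPKM and Il15ra last (SD, n = 5). Il15ra ranged over the saline mice from 9.26 to 14.5 RPKM, with an SD of 1.93. There Il7r was separated from both of its neighbours, while all other neighbours overlapped. Il2rg led the order in LPS and Il13ra1 led it in saline.

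**Figure D4:**
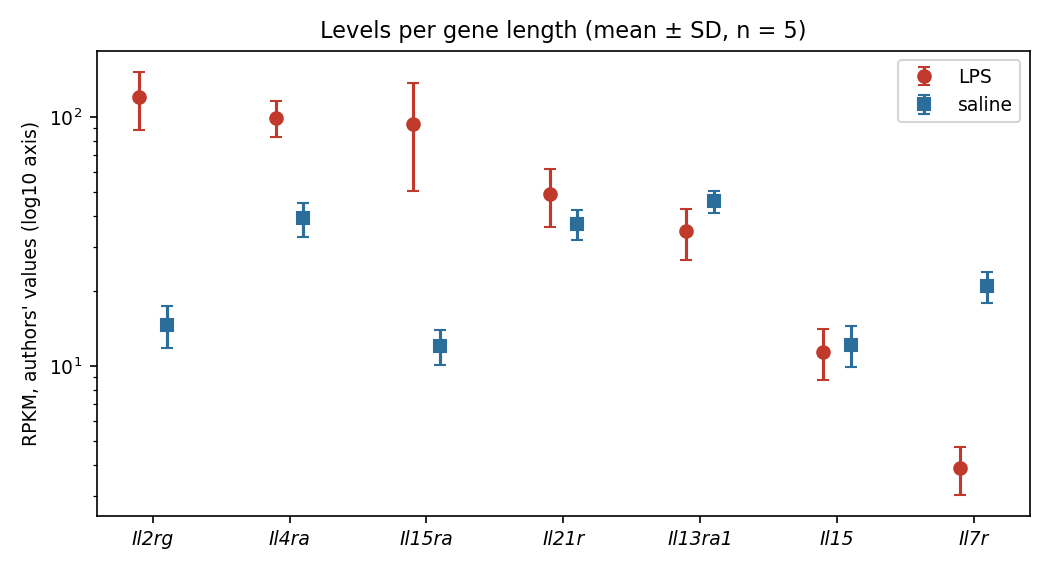
Authors' RPKM of the 7 genes on a log10 axis, mean and SD of 5 mice, LPS (red circles, left) and saline (blue squares, right), ordered by the LPS level. Il2rg has 120.0 RPKM in LPS and 14.6 RPKM in saline, and Il7r 3.87 RPKM in LPS and 20.9 RPKM in saline.

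LPS replicate 4 stood apart from the other LPS mice in several of the genes, a comparison chosen after the values were seen. Relative to the mean of the other 4 LPS mice it had 0.488 times the Il2rg level, 0.589 times Il13ra1, 0.603 times Il21r and 0.615 times Il15, but 2.14 times Il15ra. Its Il4ra and Il7r were at 0.930 and 1.26 times. Other LPS mice also stood off on this measure. Replicates 1 and 2 had 0.515 and 0.546 times Il15ra, and replicate 5 had 0.696 times Il4ra and 0.651 times Il7r. LPS replicate 4 had the lowest microglia marker sum (16900 CPM), the highest neutrophil marker sum (32.4 CPM, against 2.01 to 21.8 CPM in the other LPS mice) and the highest border-associated macrophage sum (1869 CPM, against 722.5 to 1051 CPM). Its astrocyte (346.1 CPM) and endothelial (10.84 CPM) marker sums were also the highest in LPS. Its monocyte marker sum (123.8 CPM) lay within the other LPS mice (78.13 to 219.8 CPM). The part of these values in the results was not tested. Without it, Il2rg was at log2 3.17 and Il15ra at log2 2.64, both still called by edgeR (adjusted p = 3.63e-09 and 1.83e-07).

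Markers of lymphocytes, which carry many of these receptors, differed by list. None of 10 T cell markers passed the filter, with sums of 0.157 to 2.35 CPM in LPS and 1.07 to 2.80 CPM in saline. Of 12 NK and innate lymphoid markers, 2 were tested and both fell (Klrd1 and Rora), as Il7r did; they averaged 0.0439 and 1.36 CPM in LPS and 5.66 and 6.05 CPM in saline. Without LPS replicate 4 the log2 fold change of Rora was -2.85, against -2.12 with it. That list summed to 0.845 to 10.01 CPM in LPS and 9.86 to 17.2 CPM in saline, and the T-bet gene Tbx21 had no count. LPS replicate 4, which held 8 of the 10 Il2rb counts, was the only library with any count of Cd8a (0.570 CPM), Cd2 (0.444 CPM) or the IL-2 receptor alpha gene Il2ra (0.254 CPM). Its sum over all T cell markers (2.35 CPM) was near that of LPS replicate 1 (2.26 CPM) and within the saline range. Its NK and innate lymphoid sum (10.01 CPM) was the highest in LPS and also within the saline range. Among 6 B cell markers, only Cd79b passed the filter and was not called, while Pax5 and Blk had no count (sums of 73.5 to 143 CPM in LPS and 74.7 to 109.7 CPM in saline, nearly all Cd79b). The part of lymphocytes in the results was not tested.

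Markers of other myeloid cells were measured as well. Of 8 monocyte markers, 5 were tested, 3 rose (Fn1, Ms4a4c and F13a1) and 1 fell (Ccr2), with sums of 78.1 to 219.8 CPM in LPS and 13.4 to 21.6 CPM in saline. The defining monocyte gene Ly6c2 averaged 0.225 CPM in LPS and 0 in saline. Of 9 neutrophil markers, 1 was tested and rose (Cxcr2), with sums of 2.01 to 32.4 CPM in LPS and 0.162 to 1.12 CPM in saline. Of 8 border-associated macrophage markers, 5 were tested and 3 rose (Siglec1, Cbr2 and Stab1), with sums of 722.5 to 1869 CPM in LPS and 583.4 to 876.9 CPM in saline, most of it Stab1. The other 2 tested were not called, among them Ms4a7 (log2 0.20, edgeR adjusted p = 0.791). The Stab1 call (edgeR adjusted p = 0.039) was lost with library size alone, limma-voom, a term for ranges of mouse numbers, without LPS replicate 4 (log2 0.33), and without saline replicate 1, 2, 3 or 5 (edgeR adjusted p up to 0.0951). None of the 3 tested of 7 dendritic cell markers was called (5.87 to 12.98 CPM in LPS, 10.02 to 17.3 CPM in saline). The part of these cells in the rise of Il4ra, Il2rg and Il15ra was not tested. For other brain cells, 1 of 7 endothelial markers was tested and fell (Pecam1; sums of 4.85 to 10.8 CPM in LPS and 49.3 to 73.0 CPM in saline; Cldn5 had no count). In 6 astrocyte markers, 4 were tested and 1 fell (Slc1a3; 137 to 346 CPM in LPS, 359 to 415 CPM in saline). No neuron marker (1 of 6 tested; 3.68 to 6.75 CPM in LPS, 4.13 to 8.40 CPM in saline) and no oligodendrocyte marker (4 of 6 tested; 86.1 to 114 CPM in LPS, 99.3 to 125 CPM in saline) was called.

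Other chains that pair with these receptors were low. Of 4 other chains of the family, only Crlf2, the chain that joins Il7r in the thymic stromal lymphopoietin receptor, passed the filter, and it rose 2.42-fold (log2 1.27 ± 0.34 SE; edgeR adjusted p = 0.0236). It measured 2.59, 1.54, 1.40, 2.41 and 2.27 CPM in LPS mice, against 0.988, 0.509, 0.323, 1.19 and 1.14 CPM in saline mice, with no overlap. Leaving out saline replicate 2 or 3 ended that call (edgeR adjusted p = 0.0559 and 0.0561). Il2ra averaged 0.0507 CPM in LPS and 0 in saline, Il9r 0 in LPS and 0.0331 CPM in saline, and Il13ra2 0 in LPS and 0.0170 CPM in saline.

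Apart from Il15, the ligands of these receptors had few reads or none in the sorted cells. Il4, Il7, Il9 and Il21 had no count in any of the 10 libraries, which allows up to 0.0438 CPM in LPS and 0.0445 CPM in saline (3 counts over a group). Il13 had 2 counts in LPS replicate 1, and Il2 had 1 count in saline replicate 5. Tslp, the cytokine that binds Il7r with Crlf2, was the only 1 of 7 ligands tested, and it fell 2.31-fold (2.27 ± 1.20 CPM in LPS and 5.28 ± 1.74 CPM in saline, SD, n = 5 each; edgeR adjusted p = 0.0153). Its groups overlapped, and leaving out saline replicate 3 ended the call (log2 -0.99; edgeR adjusted p = 0.0523).

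Downstream of the receptors, all 8 JAK kinases and STAT factors were tested, 1 rose, 2 fell and 5 were not called, with a median log2 fold change of -0.13. The share called over all tested genes was 45.0%, and their median log2 fold change was 0.0014. Stat6, the factor that IL-4 and IL-13 receptors activate, measured 171, 193, 206, 215 and 157 CPM in LPS mice, against 291.5, 354, 256, 287 and 253 CPM in saline mice. Every LPS mouse was below every saline mouse, and Stat6 fell 1.53-fold (log2 -0.61 ± 0.12 SE; edgeR adjusted p = 0.0029). Stat3, which the IL-21 receptor uses, measured 131, 185, 149.9, 231 and 164 CPM in LPS mice, against 118, 99.9, 90.7, 126 and 111 CPM in saline mice, and rose 1.58-fold (edgeR adjusted p = 0.00459). Jak1, which sits on Il4ra and Il7r, fell 1.30-fold (151 ± 26.0 CPM in LPS and 195 ± 20.9 CPM in saline, SD, n = 5 each; edgeR adjusted p = 0.0467), a call that ended when LPS replicate 1, 2 or 3 or saline replicate 1, 2, 4 or 5 was left out (adjusted p of 0.0538 to 0.109). The Jak1 call was also lost with RLE scaling (edgeR adjusted p = 0.0576), with no filter (0.0758) and with DESeq2 (adjusted p = 0.0515). With the gene-length trend removed it was at log2 -0.0163 (edgeR adjusted p = 0.93). Jak3, the kinase of the common gamma chain, averaged 6.79 ± 1.70 CPM in LPS and 4.36 ± 1.26 CPM in saline (SD, n = 5 each) and was not called (edgeR adjusted p = 0.0669), although it was without LPS replicate 4 (0.0277) or saline replicate 5 (0.0387).

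**Figure D5:**
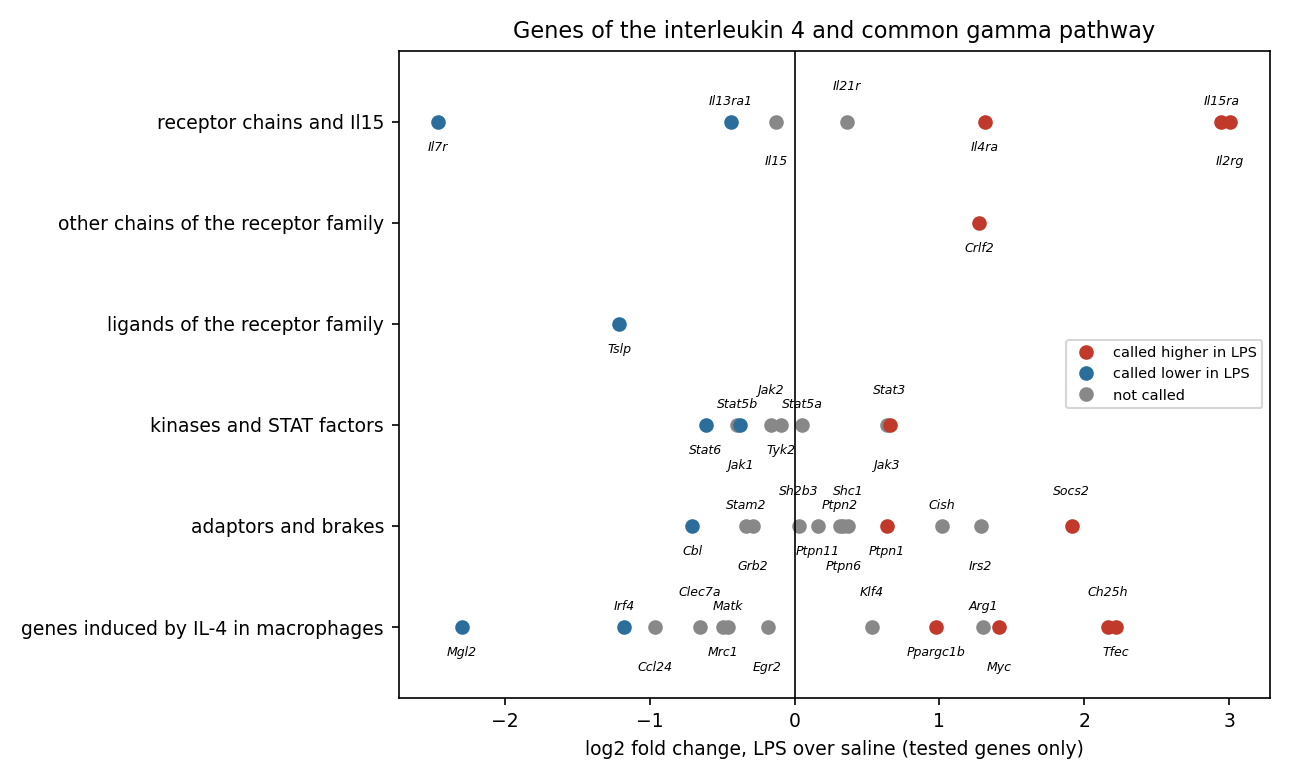
Log2 fold change, LPS over saline, of every tested gene of the receptor group and of 5 lists around it, coloured by the edgeR call. Stat6 lies at -0.61 while Il4ra lies at 1.32, and genes induced by IL-4 in macrophages lie on both sides of 0.

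Of 14 adaptors and brakes of this signalling, 12 were tested, 2 rose, 1 fell and 9 were not called, with a median log2 fold change of 0.32. Over all tested genes 45.0% were called and the median was 0.0014. Ptpn1, a phosphatase that acts on JAK kinases and STAT6, measured 189, 234, 242, 269.6 and 214 CPM in LPS mice, against 137, 140.3, 135, 169 and 158 CPM in saline mice. All LPS mice lay above all saline mice, a 1.56-fold rise (log2 0.64 ± 0.11 SE; edgeR adjusted p = 0.00158). Cbl, a ubiquitin ligase, fell 1.63-fold (21.2 ± 6.25 CPM in LPS and 34.6 ± 3.60 CPM in saline, SD, n = 5 each; edgeR adjusted p = 0.00798), a call lost with the gene-length trend removed (edgeR adjusted p = 0.317). Socs2, a cytokine-induced inhibitor, rose 3.77-fold (edgeR adjusted p = 0.0214), with 1.92, 0.615, 1.32, 9.25 and 2.58 CPM in LPS mice and 0.527, 1.36, 0.727, 0.936 and 0.641 CPM in saline mice. That call rested on LPS replicate 4, without which it was lost (log2 0.94; edgeR adjusted p = 0.118). Leaving out saline replicate 1 ended it as well (edgeR adjusted p = 0.0517), as did a term for ranges of mouse numbers (log2 1.20; edgeR adjusted p = 0.154) and limma-voom (adjusted p = 0.109).

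Of 24 genes that IL-4 is known to induce in macrophages, 13 were tested, 4 rose, 2 fell and 7 were not called, with a median log2 fold change of -0.19. Over all tested genes 45.0% were called, so these 6 calls of 13 lie near the background in that fit. With no filter 8 of the list rose and 4 fell, where 3143 of all 27565 genes rose and 3154 fell. With DESeq2 9 of the list rose, where 3704 of all 18977 genes rose. DESeq2 called Irf4, Mgl2 and Flt1 of the list lower, where 3312 of all 18977 genes fell. In both fits, the share of the list that rose was above that over all genes, a difference that was not tested. Both fits also take in genes under the filter of the main fit, which tested 13793. Their background thus holds many low genes, and these shares cannot be set beside the 45.0%. Irf4, a transcription factor downstream of STAT6, measured 3.10, 5.45, 4.42, 3.36 and 4.38 CPM in LPS mice, against 8.96, 8.57, 10.5, 12.2 and 6.62 CPM in saline mice. Its groups did not overlap, and it fell 2.26-fold (log2 -1.18 ± 0.20 SE; edgeR adjusted p = 0.00125). Myc, a growth regulator with many inducers, measured 289.8, 285, 154, 301 and 128 CPM in LPS mice, against 148, 139, 51.1, 41.7 and 55.8 CPM in saline mice. LPS replicate 5 lay below 2 saline mice, and Myc rose 2.66-fold (log2 1.41 ± 0.47 SE; edgeR adjusted p = 0.00623).

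The other called genes of this list were low. Tfec, a macrophage transcription factor, rose 4.66-fold (2.82 ± 1.15 CPM in LPS and 0.595 ± 0.526 CPM in saline, SD, n = 5 each; edgeR adjusted p = 0.0127). Ch25h, which makes 25-hydroxycholesterol, rose 4.47-fold (edgeR adjusted p = 0.0193), a call ended by leaving out LPS replicate 1 or 2 (adjusted p = 0.0506 and 0.0511). Its call was also lost with limma-voom (2.92-fold, adjusted p = 0.196), with the gene-length trend removed (edgeR adjusted p = 0.068) and in the 3 RPKM fits with limma (2.27-fold to 3.10-fold, adjusted p of 0.0574 to 0.0928). Mgl2, a lectin, fell 4.91-fold (edgeR adjusted p = 0.0215), and without LPS replicate 5 its call was lost (log2 -2.14; adjusted p = 0.0562), while without LPS replicate 2 the log2 fold change was -3.21. Ppargc1b completes the 4 that rose (1.97-fold; edgeR adjusted p = 0.0382), and its call ended without LPS replicate 3, 4 or 5 or saline replicate 1, 2 or 3 (adjusted p of 0.0539 to 0.0881). Other well-known markers of this program were named after their values were seen. Arg1 averaged 4.07 ± 2.85 CPM in LPS and 1.64 ± 0.824 CPM in saline (SD, n = 5 each) and lay at the threshold (edgeR adjusted p = 0.0517). It was called higher with RLE scaling (edgeR adjusted p = 0.0468), with no filter (0.0418), with the CPM filter (0.0475), with DESeq2 (adjusted p = 0.0262), and without LPS replicate 2 or 3 or saline replicate 1 (edgeR adjusted p = 0.0183, 0.0376 and 0.038). Mrc1 averaged 7.32 ± 2.22 CPM in LPS and 10.3 ± 1.84 CPM in saline (SD, n = 5 each; edgeR adjusted p = 0.102), and was called lower with library size alone (edgeR adjusted p = 0.0491). Ccl24 lay lower and was not called (log2 -0.96, edgeR adjusted p = 0.0739). It was called lower with library size alone, no filter, limma-voom, the gene-length trend removed, both fits on log2(RPKM + 1), and without LPS replicate 1 (adjusted p of 0.00832 to 0.0491). Also tested and not called were Klf4 (log2 0.53), Clec7a (-0.65), Matk (-0.46) and Egr2 (-0.19). Ccl17, Ccl22 and Clec10a did not pass the filter, and for each of them every LPS mouse lay above every saline mouse. The share without overlap was 29.8% over tested genes and was not computed for genes under the filter. Ccl17 averaged 1.10 ± 1.20 CPM in LPS and 0.0301 ± 0.0418 CPM in saline, Ccl22 3.21 ± 3.90 CPM in LPS and 0.165 ± 0.177 CPM in saline, and Clec10a 0.369 ± 0.215 CPM in LPS and 0.0125 ± 0.0279 CPM in saline (SD, n = 5 each). With no filter, edgeR called all 3 higher (adjusted p = 0.000465 for Ccl17, 6.79e-05 for Ccl22 and 0.0084 for Clec10a). Among the other genes of the list under the filter, that fit called Alox15 higher (log2 3.24; edgeR adjusted p = 0.0245). It called Flt1 lower (log2 -1.94; edgeR adjusted p = 0.0493). Chil3, Cdh1 and Pdcd1lg2, which lay higher, and Pparg and Fcer2a, which lay lower, were not called (edgeR adjusted p of 0.0665 to 0.701). Retnla had no count in any library.

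The genes nearest in pattern to each member were found among 9789 others with a mean of at least 5 CPM, by the root mean square difference of centred log2 CPM over the 10 libraries. For Il4ra these were Slc25a22 (0.101), Apobec3 (0.171) and Map2k3os (0.174), and for Il2rg they were Hebp1 (0.359), Lgals3bp (0.361) and Slc39a14 (0.368). Nearest to Il15ra were Ms4a6b (0.266), Ucp2 (0.334) and Cd63-ps (0.349), and to Il7r Bhlhb9 (0.214), Tmem144 (0.214) and Srl (0.232). Nearest to Il15 were Akr1b10 (0.0929), Ube2a (0.108) and Tmem141 (0.128), and to Il13ra1 Slc29a3 (0.0992), Creb1 (0.112) and Mgme1 (0.121). Nearest to Il21r were Trp53-ps (0.128), Cct4 (0.132) and Sucla2 (0.133). Il2rg, Il15ra and Il7r lay farther from their nearest genes than Il4ra, Il13ra1, Il21r and Il15 did. The distance takes in the size of the change, so this is no result separate from the fold changes.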

How the data were processed

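RNA was sequenced from reporter-sorted cortical microglia of 10 mice, 5 LPS and 5 saline, grouped by the labels. The SMARTer kit amplified 5 ng of RNA and 6 ng of product entered Ovation libraries, per the labels, which describe no molecular identifiers. The authors deposited a table of raw gene counts. The submitters' processing notes name featureCounts, GRCm38 and mm10. Aligner, annotation and strand setting were not given in the sources used here. Overlapping genes are therefore uncertain. The authors also deposited RPKM values in 2 tables whose label CRAC no source explains; the table of all genes was used for levels, and the coding table as an alternative. No count was found for 13224 genes, 1 row without a gene name was left out, and 15 gene names turned into dates were restored from the Entrez ID. RefSeq (GRCm38.p6) gave coordinates for 37659 IDs.

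The count test was that of edgeR 4.0.16 under R 4.3.3 (TMM, filterByExpr, quasi-likelihood F test, Benjamini-Hochberg over 13793 genes, called below 0.05). Standard errors come from log2 CPM with a prior count of 2. Ratios within a library used counts with 0.5 added. Alternatives used limma 3.58.1 (on log2 of the deposited RPKM, and voom) and DESeq2 1.42.0. Exact permutation tests used scipy 1.17.1 in Python 3.11.15. The fits were tested on simulated data. Protein sequences were not used here. Some members of the marker lists are not reported here. Named genes were the 8 listed genes, up to 5 called genes of each pathway list by adjusted p (3 for lists with fewer than 8 tested), the 2 highest of each list of other cells, and the 3 nearest genes of each member; the text could leave out names other than the 8, and other markers were named after their values were seen. The genes and lists were chosen with earlier results of these data known, so they are no independent support.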

Additional observations from a re-analysis of the deposited data

Results flagged for a closer look

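Il2rg in LPS replicate 4 measured 103.8 CPM, against 206.2 to 226.4 CPM in the other 4 LPS mice. Its gap to the nearest mouse was 0.836 of the range of the group, above the Dixon limit of 0.71 for 5 samples. It was the only such value among the 16 groups of 5 values examined for the 8 genes. Chance gives about 1 such value in 20 groups.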

How the results depend on the processing

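The calls and directions of Il4ra, Il2rg, Il7r and Il15ra, and the non-call of Il15, were kept in all 22 alternatives, including each mouse left out. Leaving out 1 mouse gave log2 fold changes of 1.25 to 1.42 for Il4ra, 2.89 to 3.17 for Il2rg, -2.54 to -2.34 for Il7r and 2.64 to 3.09 for Il15ra. The 12 other settings gave 1.23 to 1.66 for Il4ra, 2.59 to 3.14 for Il2rg, -2.54 to -2.18 for Il7r and 2.76 to 2.97 for Il15ra. Neither the 7 tested genes nor the 5 ratios reversed; of the 5 pathway lists, the uncalled Jak2, Tyk2, Stat5a, Sh2b3, Egr2 and Klf4 changed sign in at least 1 alternative, never as a call. Only Il7r fell among the 8 genes (1 call in place of 2, Il13ra1 being lost) with RLE factors, with the CPM filter, with each library's length trend removed and in all 3 RPKM fits; leaving out a mouse gave 1 to 2. Leaving out a mouse gave 3 to 4 genes called higher, the added one being Il21r, which was also called with the length trend removed (log2 0.54, adjusted p = 0.0307). The cause was not tested.

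For other chains, 0 rose with no filter, with mouse ranges as a term and with the length trend removed (0 to 1 leaving out a mouse). Crlf2 was too low to test in the filtered RPKM fits, and unfiltered RPKM called it higher (limma adjusted p = 0.00404). For ligands, 0 to 1 fell leaving out a mouse. For kinases and STAT factors, 2 rose with the length trend removed and with unfiltered RPKM (1 to 2 leaving out a mouse), and 1 fell with RLE, no filter, DESeq2 and the length trend removed (1 to 3). For adaptors and brakes, 5 rose with RLE, 4 with the CPM filter, 5 with DESeq2, 7 with the length trend removed and 4 with unfiltered RPKM (1 to 3), and 2 fell with library size alone and 0 with the length trend removed (1 to 3). For genes induced by IL-4, 8 rose with no filter, 9 with DESeq2 and 1 with filtered RPKM at either pseudocount (3 to 5), while 4 fell with library size alone and with no filter, and 1 with the CPM filter and RPKM at 0.1 (1 to 3). Tfec and Ppargc1b were not tested with filtered RPKM, nor Mgl2 with the CPM filter or filtered RPKM. The log2 ratio of Il2rb to Il2rg differed by -1.64, LPS minus saline (exact permutation p = 0.127), -2.25 with 2 counts added (p = 0.0317) and -2.48 to -1.25 leaving out a mouse; with 0 added or in RPKM it had no value. The 4 other ratios kept their direction and side of the threshold with 0 or 2 counts added, in RPKM and leaving out a mouse. They were not computed with the length trend removed. In that fit Il4ra was at log2 1.66 (1.32 in the main fit), Il2rg at 2.59 (3.01) and Il13ra1 at -0.26 (-0.44). No paired analysis was possible because no mouse number in the labels is shared between the groups, so no replicate block could be fitted. A term for 3 ranges of mouse numbers was fitted in its place, and among the named genes it ended the calls of Crlf2, Socs2 and Stab1. Depth limits Il2rb, whose counts in 8 of 10 libraries were 0.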
